A study of Mus musculus with 15 samples.

Results

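Mouse corneas were compared between 6 and 3 months of age across both Opa1 genotypes at once, using all 15 libraries of the series: 7 at 6 months (3 OPA1+/+ and 4 OPA1+/-) and 8 at 3 months (4 of each genotype). Genotype entered the model as a block, so that each gene's age difference was read within OPA1+/+ and within OPA1+/- and then combined. Of 15958 genes with at least 10 counts in at least 3 libraries, 48 passed at an adjusted p under 0.05 (0.301%), 15 of them higher (0.0940%) and 33 lower (0.207%) at 6 months. Each of the 48 had the same sign of the age difference in both genotypes, and these genes are described here. The combined test favours genes of 1 sign, so this share is no independent support. The study set OPA1+/- against OPA1+/+ corneas at these ages in work on inherited mitochondrial dysfunction and corneal nerves, and no group received an agent. OPA1+/- animals carry 1 altered copy of Opa1, the gene of a dynamin-like GTPase that fuses inner mitochondrial membranes. The labels name neither the kind of allele, the strain, the sex, the number of animals in a library nor a batch or time of dissection. A difference between the ages therefore cannot be told apart from any difference in dissection or library preparation between them, and p-values measure the spread between these libraries, which may be technical.

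The cornea is a transparent sheet with a stratified epithelium in front, a collagen-rich stroma in the middle and a single-layered endothelium behind. Stromal cells called keratocytes make thin, evenly spaced fibrils of type I and type V collagen together with the small proteoglycans keratocan, lumican and decorin, and this spacing is known to be needed for transparency. Keratocytes also make the chaperones, crosslinking enzymes and proteases that fold, join and remodel this matrix as the tissue matures. In such whole-tissue libraries, fewer cells of a type and less RNA per cell cannot be told apart.

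Opa1 itself was read first as a check of the labels. The 7 OPA1+/+ libraries held it at 65.2 to 73.4 CPM (counts scaled to the library total with trimmed-mean factors), and the 8 OPA1+/- libraries held 45.4 to 57.7 CPM, with no overlap. Its age difference was -0.03 ± 0.05 on the log2 scale (6 minus 3 months, ± standard error, edgeR quasi-likelihood test with Benjamini-Hochberg adjustment over all tested genes, adjusted p = 0.831) and did not pass. Libraries held 11673240 to 18194946 counts. Transcripts of the retina list were at 217 CPM summed in OPA1+/- 3 months replicate 4 and in OPA1+/+ 6 months replicate 1, against 17.7 to 39.2 CPM in the other 13. Lens transcripts summed to 39.1 to 77.1 CPM at 3 months and 48.3 to 50.8 CPM at 6 months in OPA1+/+, and to 55.8 to 179.8 CPM and 42.9 to 48.4 CPM in OPA1+/-, where the ages did not overlap. Of the lens markers, 10 were tested and all had negative values (median age difference -2.44). None passed with edgeR, while 9 were at an unadjusted p under 0.05, and DESeq2 called 0. The median of the lens markers was -1.45 without OPA1+/- 3 months replicate 4 and -1.25 without both libraries with retina transcripts (8 genes tested in each), and Cryga, Cryge and Lim2 had no count in any library. The part of lens RNA in the age differences was not tested, beyond leaving out these libraries. Markers of the corneal epithelium summed to 70120 to 80340 CPM at 3 months and 70980 to 74180 CPM at 6 months, and none of the 21 tested passed (5 at an unadjusted p under 0.05, and 0 with DESeq2).

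The age differences of the 48 genes ran from 0.16 to 1.98 in absolute log2 value, with a median of 0.37, and only Casp1 and Clca3b reached 1. In 20 of the 48 genes no 6 month library overlapped any 3 month library, 7 of the higher and 13 of the lower genes. Over all genes tested, 0.0940% were separated in this way upward and 0.132% downward. Within each genotype taken by itself the ages did not overlap for 11 of the higher and 21 of the lower genes, against 0.238% of all genes in each direction. The 48 genes were called on this same age difference in the same libraries, so their separation is no independent support. The age by genotype interaction called 0 genes with edgeR's quasi-likelihood test (1098 at an unadjusted p under 0.05, 6.88%, and 20 called by DESeq2). Among the 48 the smallest unadjusted interaction p was that of Csmd2, 0.0134.

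**Figure D1:**
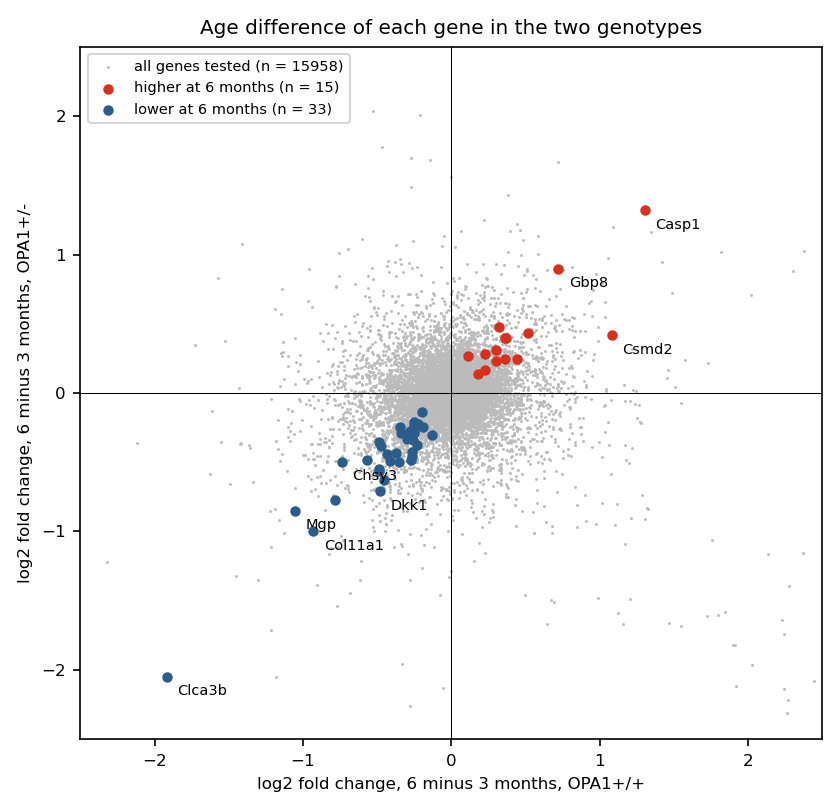
Each point is 1 of the 15958 genes tested, with its log2 fold change (6 minus 3 months) in OPA1+/+ on the x axis and in OPA1+/- on the y axis. The 15 higher genes (red) lie in the upper right and the 33 lower genes (blue) in the lower left, and 19 genes lie beyond the axis limits of 2.5.

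Genotypes tested alone called fewer genes, 7 in OPA1+/+ (0.0439%) and 14 in OPA1+/- (0.0877%), and shared 1. The libraries of each genotype are separate, so the sign of a gene called in one can be read in the other, although both tests share a spread estimated from all 15 libraries. Fitted without the other genotype, OPA1+/+ gave 2 calls and OPA1+/- gave 33. Of the 14 genes called in OPA1+/-, 13 had the same sign in OPA1+/+, and Id4, an inhibitor of DNA binding, did not. Of the 7 called in OPA1+/+, 4 had the same sign in OPA1+/-. Those with the opposite sign were Per3 and Tef, which belong to the circadian clock and its output, and Egln3, an oxygen-sensing hydroxylase. At an unadjusted p under 0.01 the same sign was found for 334 of 515 OPA1+/+ genes (64.9%) and 296 of 409 OPA1+/- genes (72.4%), where 54.7% of all genes tested shared their sign.

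Fibrillar collagens had the lowest median of the matrix lists. Of 18 tested genes of fibrillar and associated collagens, 3 fell, none rose and 15 did not pass. Their median age difference was -0.34 on the log2 scale (-0.26 in OPA1+/+ and -0.43 in OPA1+/-), beside 0.00 over all genes tested, and 15 of the 18 values were negative, beside 49.6% of all genes. DESeq2 called 11 of the 18 lower, where it called 229 genes in all. With edgeR the fall was called for 6 with no filter or without OPA1+/+ 3 months replicate 3, for 5 without OPA1+/+ 6 months replicate 1 or without both libraries with retina transcripts, for 1 with the mean of vessel markers as a covariate and for none with that of Kera, Lum and Dcn. The upstream sequences of the 2 collagen genes with the smallest p are shown as examples. They come from RefSeq (GRCm38.p6), end at the base before the annotated transcription start, and are given 5' to 3' on the plus strand, with a CCAAT motif or its reverse complement ATTGG in capitals.
Col11a1, chr3:114030390-114030539: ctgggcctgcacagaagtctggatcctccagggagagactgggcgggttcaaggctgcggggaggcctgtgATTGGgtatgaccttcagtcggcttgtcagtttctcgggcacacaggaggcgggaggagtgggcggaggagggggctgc
Col16a1, chr4:130047690-130047839: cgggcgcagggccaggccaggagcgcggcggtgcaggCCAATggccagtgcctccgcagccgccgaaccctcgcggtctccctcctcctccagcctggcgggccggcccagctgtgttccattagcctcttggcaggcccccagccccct
In the 250 bases upstream, CCAAT on either strand was present in 8 of the 25 lower genes with a listed promoter, in 5 of the 6 higher genes with one (83.3%) and in 9314 of 27025 listed promoters (34.5%). The match lies 79 bases before the start in Col11a1 and 113 bases before it in Col16a1. A match is a description of these letters and shows no binding.

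Col11a1 encodes the alpha-1 chain of type XI collagen, a minor fibrillar collagen that is incorporated within fibrils and limits their diameter. Its gene occupies bases 113824189 to 114014367 of chromosome 3, plus strand (coordinates of genes are those of the deposited files, read as GRCm39). At 3 months it was at 8.50, 6.76, 5.13 and 8.10 CPM in OPA1+/+ and at 7.09, 8.31, 5.85 and 8.59 CPM in OPA1+/-. At 6 months it was at 4.01, 3.43 and 3.73 CPM in OPA1+/+ and at 3.91, 4.45, 3.44 and 3.21 CPM in OPA1+/-. Every 6 month library was below every 3 month library, and the difference was -48.8% (log2 fold change -0.97 ± 0.12, adjusted p = 0.000764). It was -0.93 ± 0.18 in OPA1+/+ and -0.997 ± 0.16 in OPA1+/-.

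Col16a1 encodes a collagen with interrupted triple helices that associates with fibrils without forming them. Its libraries ran from 34.5 to 41.2 CPM at 3 months (median 36.4) and from 21.9 to 30.6 CPM at 6 months (median 27.95), without overlap. The log2 fold change was -0.44 ± 0.06 (adjusted p = 0.00191), close to equal in OPA1+/+ (-0.43 ± 0.09) and OPA1+/- (-0.44 ± 0.08). Col5a2 encodes the alpha-2 chain of type V collagen, which nucleates the thin fibrils of the corneal stroma. It was at 60.6 to 85.7 CPM at 3 months (median 76.0) and 46.8 to 61.1 CPM at 6 months (median 57.8), and the ranges met at their edge in OPA1+/+. Its log2 fold change was -0.46 ± 0.08 (adjusted p = 0.0161).

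The other collagens did not pass, and their values lay mostly on the same side. Col1a1 and Col1a2, the chains of type I collagen that make up most of a corneal fibril, had log2 fold changes of -0.40 ± 0.11 (adjusted p = 0.151) and -0.34 ± 0.09 (adjusted p = 0.142). Col5a1, the partner chain of Col5a2, was at -0.34 ± 0.12 (adjusted p = 0.298), with -0.10 in OPA1+/+ and -0.55 in OPA1+/-. The 3 chains of the beaded-filament collagen VI, Col6a1, Col6a2 and Col6a3, were at -0.47, -0.39 and -0.35 (adjusted p = 0.0674, 0.119 and 0.0694). Col24a1, a fibrillar collagen at 2.82 ± 0.43 CPM at 3 months (SD, n = 8) and 1.82 ± 0.31 CPM at 6 months (SD, n = 7), was just outside the threshold at -0.63 ± 0.14 (adjusted p = 0.0510). Positive values, none of which passed, were those of Col11a2 (0.19), Col14a1 (0.14) and Col5a3 (0.01). Col8a1 and Col8a2, the collagen VIII chains of the endothelial basement membrane, were at -0.04 and -0.15 (adjusted p = 0.858 and 0.0789).

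**Figure D2:**
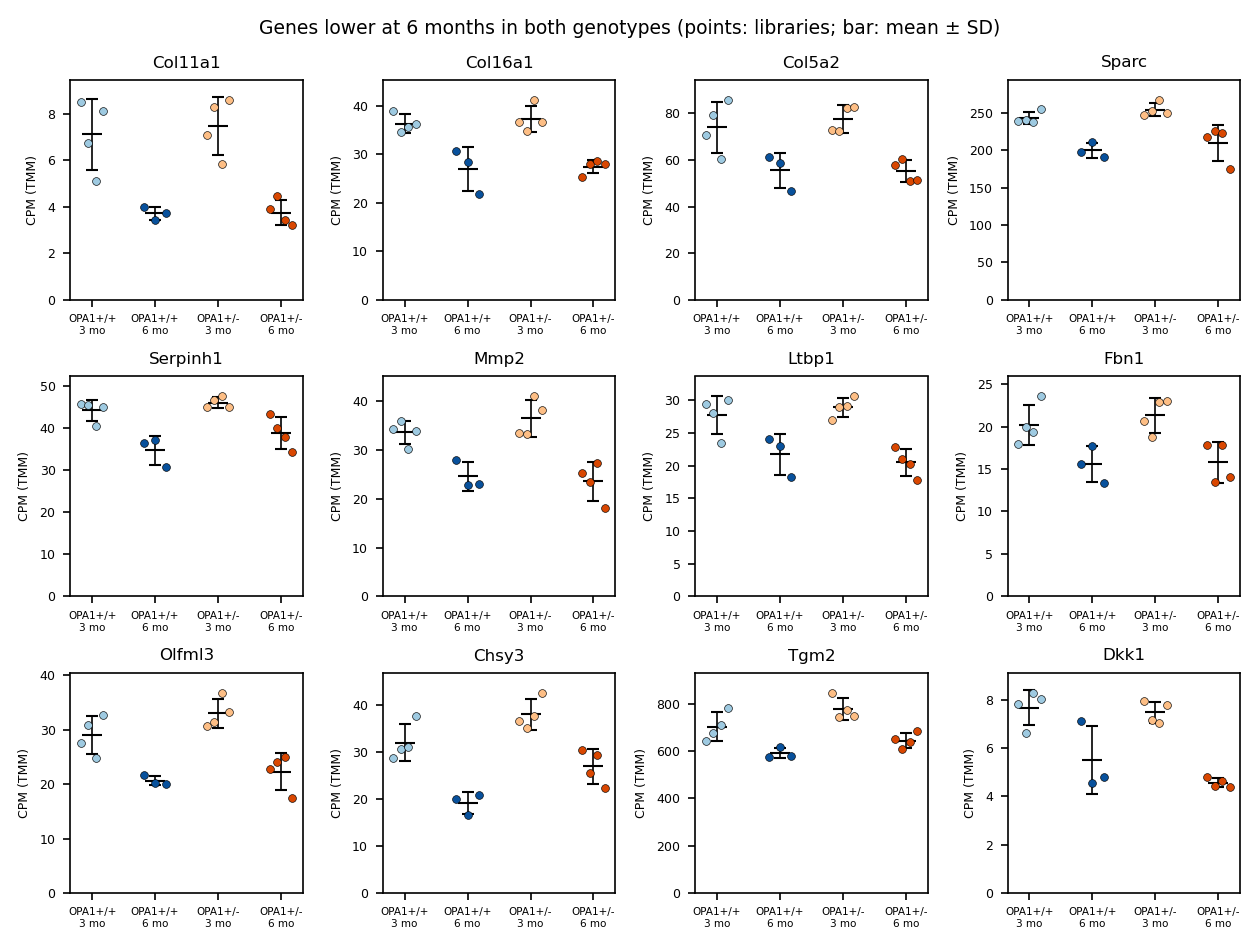
CPM of 12 of the 33 lower genes in each library (points), with the mean and SD of each of the 4 groups. For Col11a1 the 6 month libraries sit at 3.21 to 4.45 CPM, all below the 5.13 to 8.59 CPM of the 3 month libraries, and for Dkk1 a single OPA1+/+ library at 6 months reaches the 3 month range.

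Collagen folding and assembly genes moved less. Of 27 tested genes of collagen processing and crosslinking 2 fell, none rose and 25 did not pass, with a median of -0.12 and 22 negative values. Sparc, a collagen-binding matricellular glycoprotein needed for fibril assembly, was at 237.5 to 267.0 CPM at 3 months (median 248.5) and 174.4 to 226.0 CPM at 6 months (median 211.0). No library of one age reached the other, and the log2 fold change was -0.28 ± 0.05 (adjusted p = 0.00601), -0.28 in OPA1+/+ and -0.27 in OPA1+/-. Serpinh1 encodes HSP47, the chaperone of the endoplasmic reticulum that is specific to procollagen. It was at 40.6 to 47.6 CPM at 3 months and 30.9 to 43.4 CPM at 6 months, overlapping over all libraries but not within either genotype (log2 fold change -0.29 ± 0.05, adjusted p = 0.0161). Serpinh1 was also the only member called by edgeR of 24 tested heat shock and folding genes, whose median was 0.00. Of the 24, 6 were at an unadjusted p under 0.05, and DESeq2 called 1 higher and 1 lower. The enzymes that hydroxylate, trim and crosslink collagen did not pass: the lysyl hydroxylase Plod1 was at -0.29 ± 0.11 (adjusted p = 0.309), the lysyl oxidase Lox at -0.20 ± 0.16 (adjusted p = 0.675) and the prolyl isomerase Ppib at 0.01 ± 0.04 (adjusted p = 0.975).

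Tgm2, transglutaminase 2, crosslinks matrix proteins and stands outside that list. It was at 639.9 to 844.8 CPM at 3 months (median 746.4) and 574.8 to 683.2 CPM at 6 months (median 615.6), a difference of -16.6% (log2 fold change -0.26 ± 0.04, adjusted p = 0.00524). The ages did not overlap within either genotype. Chsy3, a synthase of chondroitin sulfate chains, was at 28.6 to 42.5 CPM at 3 months (median 35.8) and 16.5 to 30.5 CPM at 6 months (median 22.4). Its log2 fold change was -0.60 ± 0.08 (adjusted p = 0.00203), with -0.74 ± 0.12 in OPA1+/+, where it passed alone (adjusted p = 0.0305), and -0.49 ± 0.10 in OPA1+/-, where it did not (adjusted p = 0.0943). The interaction did not pass (adjusted p = 0.817).

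Among 18 tested matrix proteases and inhibitors, Mmp2 fell, none rose and 17 did not pass, with a median of -0.14. Mmp2, gelatinase A, is made by stromal cells and cleaves denatured and basement membrane collagen. It was at 30.2 to 40.9 CPM at 3 months (median 34.1) and 18.01 to 27.98 CPM at 6 months (median 23.4), without overlap, and its log2 fold change was -0.55 ± 0.08 (adjusted p = 0.00490). Mmp14, the membrane protease that activates the product of Mmp2, was called in OPA1+/- alone (-0.28 ± 0.05, adjusted p = 0.0411) and was at 0.00 ± 0.05 in OPA1+/+ (adjusted p = 0.9997). Its interaction did not pass (adjusted p = 0.328). Timp2, the inhibitor that takes part in that activation, was at -0.12 ± 0.05 (adjusted p = 0.377).

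Elastic fibre and matricellular genes counted 3 that fell, none that rose and 21 that did not pass of 24 tested, with a median of -0.16 (-0.10 in OPA1+/+ and -0.28 in OPA1+/-). DESeq2 called 6 of them lower, and edgeR 5 without OPA1+/+ 3 months replicate 3 and 1 without OPA1+/+ 3 months replicate 4, OPA1+/- 3 months replicate 3 or 4, OPA1+/+ 6 months replicate 3 or OPA1+/- 6 months replicate 4. Fbn1, fibrillin-1, forms the microfibrils on which elastic fibres assemble. It was at 17.9 to 23.5 CPM at 3 months and 13.4 to 17.8 CPM at 6 months, and did not overlap (log2 fold change -0.41 ± 0.08, adjusted p = 0.0308). Ltbp1, which holds latent TGF-beta on those microfibrils, was at 23.5 to 30.6 CPM at 3 months and 17.9 to 24.1 CPM at 6 months, overlapping in OPA1+/+ alone (-0.43 ± 0.07, adjusted p = 0.00593). Thbs2, thrombospondin-2, a matricellular protein that restrains vessel growth, was at 60.0 to 79.0 CPM at 3 months and 50.2 to 67.2 CPM at 6 months, also overlapping in OPA1+/+ (-0.30 ± 0.06, adjusted p = 0.0376). Fn1, fibronectin, was at 0.01 ± 0.06 (adjusted p = 0.971) and Tgfbi, the abundant corneal matrix protein of inherited stromal dystrophies, at -0.09 ± 0.03 (adjusted p = 0.155).

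Of 26 tested basement membrane genes 1, Lama2, fell and none rose. The median of the list was -0.11, and 24 of its 26 values were negative. DESeq2 called 4 lower, and edgeR 4 without OPA1+/+ 6 months replicate 1 but 0 in 12 of the 15 fits that left out 1 library. Lama2, the laminin alpha-2 chain, known from the basement membranes of muscle and Schwann cells, was at 15.9 to 25.1 CPM at 3 months (median 22.7) and 15.03 to 19.5 CPM at 6 months (median 17.0). The libraries overlapped in OPA1+/+, and the log2 fold change was -0.39 ± 0.08 (adjusted p = 0.0488). Col4a1 and Col4a2, the chains of ubiquitous type IV collagen, were at -0.15 ± 0.04 and -0.20 ± 0.05 (adjusted p = 0.144 and 0.0801). Col17a1, the hemidesmosomal collagen of the epithelium, was at 0.02 ± 0.03 (adjusted p = 0.894).

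The 5 matrix lists lay below 0 at their median in both genotypes. Signs were shared between genotypes by 88.89% of fibrillar collagens, 69.23% of basement membrane genes and 62.96% of collagen processing genes. The share was 58.33% for elastic fibre and matricellular genes and 50% for proteases and inhibitors, beside 54.72% of all genes tested. Proteases and inhibitors had a median of -0.032 in OPA1+/+, with quartiles of -0.168 and 0.096. Some lists outside the matrix also had medians below 0 in both genotypes. Vessel markers were at -0.22 in OPA1+/+ and -0.42 in OPA1+/-, conjunctiva markers at -0.19 and -0.18, keratocyte markers at -0.18 and -0.11, Schwann cell markers at -0.09 and -0.13, and Wnt pathway genes at -0.06 and -0.11. The lens list had the lowest medians, -0.53 and -3.62. The median of 38 interferon-stimulated genes was -0.05 in OPA1+/+ and 0.32 in OPA1+/-, and that of 36 DNA replication genes was -0.46 and -0.01. The difference between genotypes was not tested for a list.

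**Figure D3:**
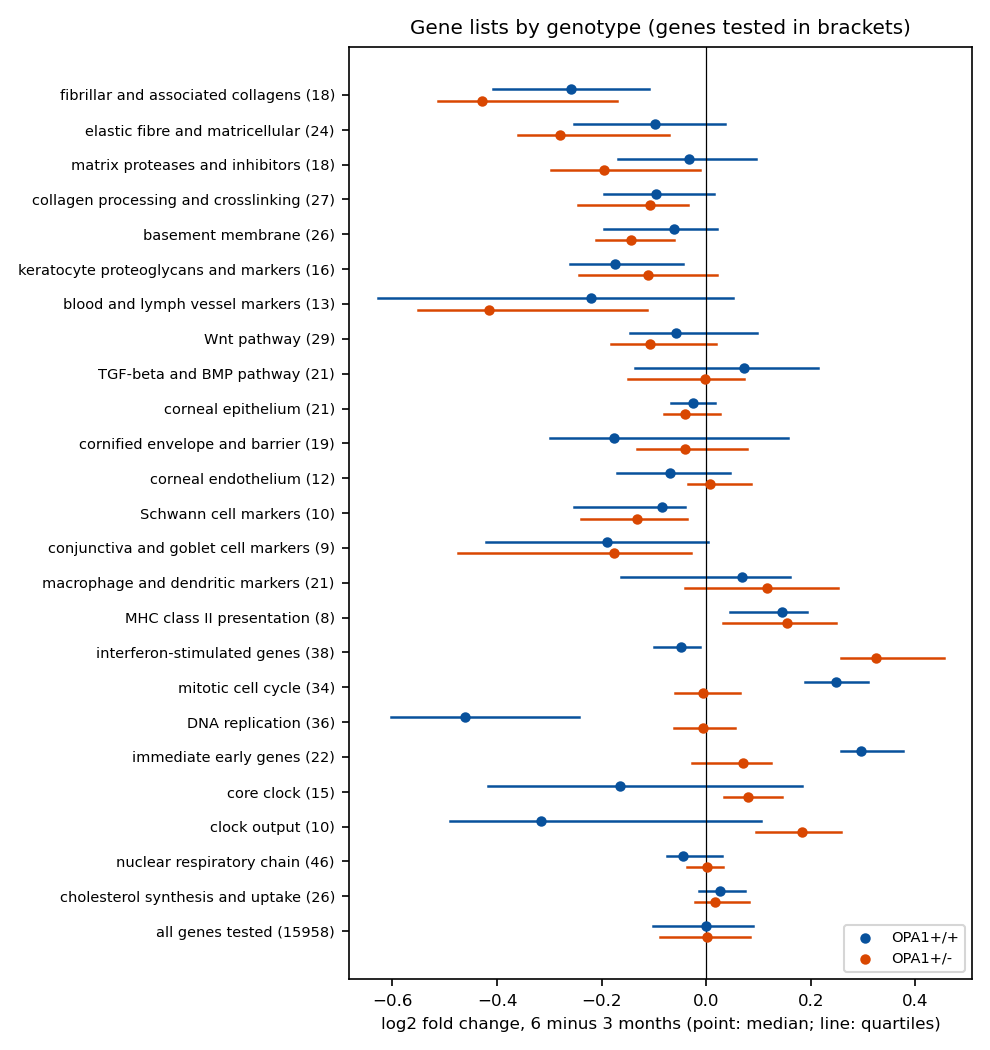
Median (point) and quartiles (line) of the log2 fold change, 6 minus 3 months, over the tested genes of 24 lists and of all 15958 genes, in OPA1+/+ (blue) and OPA1+/- (orange). Fibrillar collagens have medians of -0.26 and -0.43, all genes of 0.00 in both, and DNA replication genes of -0.46 and -0.01.

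The Wnt pathway list held 1 lower gene, Dkk1, and the TGF-beta and BMP pathway list none called by edgeR of 21 tested. The median of the 21 was -0.01, with 7 at an unadjusted p under 0.05 and 1 called lower by DESeq2. Dkk1 encodes a secreted inhibitor that binds the Wnt co-receptors. At 6 months it was at 7.11, 4.55 and 4.82 CPM in OPA1+/+ and 4.82, 4.45, 4.65 and 4.39 CPM in OPA1+/-, against 6.61 to 8.29 CPM at 3 months. All 6 month libraries but OPA1+/+ replicate 1 were below the 3 month range, and the log2 fold change was -0.60 ± 0.10 (adjusted p = 0.00601). It was the only one called by edgeR of 29 tested genes of the Wnt pathway (median -0.06). Of the 29, 8 were at an unadjusted p under 0.05, and DESeq2 called 2 lower. Wnt11, a ligand, was called in OPA1+/- alone (-0.73 ± 0.13, adjusted p = 0.0411) and was at -0.21 ± 0.14 in OPA1+/+ (adjusted p = 0.660, interaction adjusted p = 0.608).

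Olfml3, an olfactomedin-domain secreted protein, was at 24.9 to 36.8 CPM at 3 months and 17.4 to 25.1 CPM at 6 months (log2 fold change -0.53 ± 0.07, adjusted p = 0.00191). Its single overlap was between genotypes, and within each genotype the ages were apart. Mgp, matrix Gla protein, an inhibitor of calcification, was at 8.55 to 20.9 CPM at 3 months (median 15.4) and 5.56 to 12.2 CPM at 6 months (median 7.60), and its log2 fold change was -0.94 ± 0.17 (adjusted p = 0.0340). Fstl1, a follistatin-like glycoprotein, fell from a median of 40.5 to 30.5 CPM (-0.37 ± 0.07, adjusted p = 0.0308). Angptl1, an angiopoietin-like secreted protein, was at 8.35 to 10.5 CPM at 3 months and 5.52 to 8.09 CPM at 6 months, without overlap (-0.41 ± 0.08, adjusted p = 0.0308). The broad protease inhibitor alpha-2-macroglobulin, A2m, fell from a median of 867.9 to 657.2 CPM (-0.35 ± 0.07, adjusted p = 0.0365), with overlap in OPA1+/+. Itgbl1, an integrin beta-like protein, was at 11.9 to 22.4 CPM at 3 months and 6.97 to 12.3 CPM at 6 months (-0.78 ± 0.14, adjusted p = 0.0278).

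Clca3b, of the calcium-activated chloride channel regulator family, had the largest absolute fold change of the 48. At 3 months it was at 15.6, 18.7, 39.2 and 18.2 CPM in OPA1+/+ and 24.9, 15.7, 12.2 and 11.6 CPM in OPA1+/-. At 6 months it was at 6.28, 6.64 and 5.29 CPM in OPA1+/+ and 5.64, 5.52, 3.22 and 1.096 CPM in OPA1+/-. Every 6 month library was below every 3 month library, and the log2 fold change was -1.98 ± 0.31 (adjusted p = 0.0247). The call was lost without OPA1+/+ 6 months replicate 2 (adjusted p = 0.0613) or replicate 3 (0.0768), with the Clca3b log2 fold change at -2.02 and -1.95. Its relatives on chromosome 3 are close in sequence, so the split of reads among them is uncertain: Clca3a2 was at -1.16 ± 0.25 (adjusted p = 0.0533) and Clca2 at -0.22 ± 0.16 (adjusted p = 0.627). Of 9 tested conjunctiva and goblet cell markers 8 had negative values and none passed, with Krt4 at -0.99 ± 0.48 (adjusted p = 0.456) and Krt13 at -0.21 ± 0.14 (adjusted p = 0.604). By other measures, 1 of the 9 was at an unadjusted p under 0.05 and 1 was called lower by DESeq2. The list summed to 510.7 to 887.6 CPM at 3 months and 502.4 to 854.5 CPM at 6 months, and its Tff3 had no count in any library. With the mean of these 9 markers as a covariate the Clca3b log2 fold change was -2.04 (adjusted p = 0.112).

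Kdr, the receptor VEGFR2 for vascular endothelial growth factor, was at 9.84 to 12.8 CPM at 3 months and 5.45 to 9.83 CPM at 6 months. The ages did not overlap, although the highest 6 month and the lowest 3 month library were nearly equal, and the log2 fold change was -0.52 ± 0.11 (adjusted p = 0.0308). The receptor is known best from the endothelium of vessels. It was the only one called by edgeR of 13 tested blood and lymph vessel markers, of which 11 had negative values (median -0.38). Of the 13, 5 were at an unadjusted p under 0.05, and DESeq2 called 2 lower. The list summed to 112.4 to 133.6 CPM at 3 months and 113.4 to 116.1 CPM at 6 months in OPA1+/+, which overlap, and to 134.4 to 151.3 CPM and 128.5 to 131.0 CPM in OPA1+/-, which do not. Each of its 23 members had a count in some library. Without Kdr, the mean log2 CPM of the other 12 was 1.25 to 1.67 at 3 months and 0.83 to 1.54 at 6 months in OPA1+/+, and 1.22 to 1.51 and 0.54 to 1.12 in OPA1+/-. Pecam1, a defining endothelial marker, was at 0.66 ± 0.38 CPM at 3 months (SD, n = 8) and 0.58 ± 0.42 CPM at 6 months (SD, n = 7).

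Phldb1, which anchors microtubules at sites of matrix contact, was at 39.6 to 51.1 CPM at 3 months and 33.3 to 37.8 CPM at 6 months, without overlap (log2 fold change -0.32 ± 0.05, adjusted p = 0.00588). Mylk, myosin light chain kinase, did not overlap either (-0.23 ± 0.05, adjusted p = 0.0278), and nor did Arhgef2, a microtubule-bound activator of RhoA (-0.31 ± 0.06, adjusted p = 0.0308). Snx29, a sorting nexin, was at 102.7 to 118.0 CPM at 3 months and 89.7 to 101.2 CPM at 6 months, a small and fully separated difference (-0.24 ± 0.04, adjusted p = 0.00490). Stard13, which restrains RhoA, fell by 14.3% (-0.22 ± 0.05, adjusted p = 0.0488). Apaf1, the scaffold of the apoptosome, was at -0.22 ± 0.04 (adjusted p = 0.0308), and Smarca2, an ATPase of chromatin remodelling, at -0.16 ± 0.04 (adjusted p = 0.0488).

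Of the remaining lower genes, Adh6b, an alcohol dehydrogenase of a clustered family, was at 26.4 to 40.3 CPM at 3 months and 18.3 to 27.8 CPM at 6 months (log2 fold change -0.42 ± 0.07, adjusted p = 0.00490). Abca8b, a lipid transporter with a close neighbouring relative, was at -0.52 ± 0.11 (adjusted p = 0.0488), and that relative, Abca8a, at -0.37 ± 0.11 (adjusted p = 0.152). Reads of either pair of relatives may be divided in counting. Prss32, a serine protease, did not overlap between ages (-0.27 ± 0.05, adjusted p = 0.0248). Npdc1, a neural differentiation gene, and 2010300C02Rik fell by 19.3% and 14.5% (adjusted p = 0.0308 and 0.0278). As a set the 33 lower genes lay on 16 chromosomes and had a median exonic length of 6750 bases, the 15 higher genes 3443 bases and all genes tested 3986 bases.

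The 15 higher genes shared no list and were led by a gene without a symbol in the name table, ENSMUSG00002076161.1, which spans bases 78082585 to 78082915 of chromosome 9 on the minus strand. At 3 months it was at 3469, 3141, 3002 and 3691 CPM in OPA1+/+ and at 3226, 3250, 3322 and 3251 CPM in OPA1+/-. At 6 months it was at 4474, 4148 and 4287 CPM in OPA1+/+ and at 4258, 4149, 4473 and 4278 CPM in OPA1+/-. The ages were fully apart, and the rise of 30.5% (log2 fold change 0.38 ± 0.04, adjusted p = 3.36e-05) had the smallest p of all genes tested. It was the gene called in both genotypes, at 0.37 ± 0.06 in OPA1+/+ (adjusted p = 0.0231) and 0.39 ± 0.05 in OPA1+/- (adjusted p = 0.00520). It was chosen outside the naming rule, which required a symbol. Reads of so short a gene may also be shared with copies elsewhere in the genome.

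Casp1, the protease that matures interleukin-1 beta and interleukin-18 in inflammasomes, rose by the largest factor. At 3 months it was at 1.78, 1.16, 3.79 and 1.45 CPM in OPA1+/+ and 1.66, 3.74, 1.41 and 2.63 CPM in OPA1+/-. At 6 months it was at 5.45, 4.33 and 5.44 CPM in OPA1+/+ and 4.59, 7.75, 5.73 and 5.56 CPM in OPA1+/-. No library overlapped between ages, and the log2 fold change was 1.31 ± 0.23 (adjusted p = 0.0181), 1.31 in OPA1+/+ and 1.32 in OPA1+/-. The call was lost without OPA1+/+ 6 months replicate 3 (Casp1 log2 fold change 1.29, adjusted p = 0.0531). Casp12, its neighbour on chromosome 9, was at 0.20 ± 0.18 (adjusted p = 0.724), its substrate gene Il18 at 0.22 ± 0.09 (adjusted p = 0.343) and Gsdmd, the pore-forming substrate, at 0.06 ± 0.07 (adjusted p = 0.794). These 3 genes were chosen after their values were seen. Of 21 tested macrophage and dendritic cell markers none passed (3 at an unadjusted p under 0.05, and 0 with DESeq2), and the list summed to 122.5 to 150.8 CPM at 3 months and 127.4 to 147.3 CPM at 6 months, with no member at 0 in all libraries.

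Gbp8, an interferon-inducible guanylate-binding protein, was at 10.97 to 20.1 CPM at 3 months (median 14.7) and 20.2 to 33.1 CPM at 6 months (median 26.1). The ranges touched without overlapping, and the log2 fold change was 0.82 ± 0.14 (adjusted p = 0.0272), 0.72 in OPA1+/+ and 0.90 in OPA1+/-. It lies on chromosome 5 in a cluster of relatives with similar sequence, so reads may be split between them. Gbp4 was at 0.59 ± 0.14 (adjusted p = 0.110), Gbp9 at 0.45 ± 0.25 (adjusted p = 0.532) and Gbp6 at 0.43 ± 0.27 (adjusted p = 0.579), all chosen after their values were seen. None of 38 tested interferon-stimulated genes passed (0 at an unadjusted p under 0.05, and 0 with DESeq2).

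Mat2a, which makes S-adenosylmethionine, the methyl donor of the cell, was at 141.3 to 169.6 CPM at 3 months (median 157.5) and 168.6 to 215.5 CPM at 6 months (median 190.7). The ages were apart within each genotype, and the log2 fold change was 0.30 ± 0.05 (adjusted p = 0.00588). Arg1, the arginase of the urea cycle, was at 87.7 to 103.5 CPM at 3 months and 107.6 to 125.3 CPM at 6 months, with no overlap (0.26 ± 0.04, adjusted p = 0.0111). Car9, a membrane carbonic anhydrase that is induced in hypoxia, was at 6.25 to 10.3 CPM at 3 months and 8.71 to 12.6 CPM at 6 months (0.47 ± 0.09, adjusted p = 0.0269), with an overlap in OPA1+/-. Oxr1, an oxidation resistance gene, was at 631.9 to 787.6 CPM at 3 months and 805.7 to 923.3 CPM at 6 months, fully apart (0.26 ± 0.05, adjusted p = 0.0278). None of 28 tested antioxidant genes passed (median -0.02, 6 at an unadjusted p under 0.05, and 1 higher with DESeq2), and none of 46 tested nuclear respiratory chain genes did (median -0.03, 1 at an unadjusted p under 0.05, and 0 with DESeq2).

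Vit, vitrin, a matrix protein with von Willebrand A domains, was a matrix gene that moved upward. It was at 9.51 to 15.6 CPM at 3 months (median 11.9) and 12.4 to 18.5 CPM at 6 months (median 17.7), with the ages apart within each genotype (log2 fold change 0.38 ± 0.07, adjusted p = 0.0269). At 6 months the 4 OPA1+/- libraries lay at 17.7 to 18.5 CPM, above the 12.4 to 15.4 CPM of the 3 OPA1+/+ libraries, a difference that was not tested here. Without OPA1+/- 3 months replicate 3, OPA1+/+ 6 months replicate 3 or OPA1+/- 6 months replicate 1, 2 or 4 the Vit log2 fold change had an adjusted p of 0.0555, 0.0793, 0.0603, 0.05003 and 0.0517, all above the threshold.

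Csmd2, a large synaptic membrane protein, was at 2.13 to 2.53 CPM at 3 months and 4.04 to 5.596 CPM at 6 months in OPA1+/+, and at 2.97 to 5.11 CPM and 4.87 to 6.09 CPM in OPA1+/-. It was called in OPA1+/+ alone (adjusted p = 0.0359), where the ages were apart, and the OPA1+/- libraries overlapped (combined log2 fold change 0.70 ± 0.14, adjusted p = 0.0287). Dlg2, a synaptic scaffold, was called in OPA1+/- alone as well (0.26 ± 0.05, adjusted p = 0.0491) and in the combined comparison was at 0.19 ± 0.04 (adjusted p = 0.0376). Srcin1, an inhibitor of Src kinase, was at 0.19 ± 0.04 (adjusted p = 0.0278). Of the 18 neuronal and sensory axon transcripts listed, 3 were tested and none passed (0 at an unadjusted p under 0.05, and 0 with DESeq2), and Scn10a had no count in any library.

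The last of the risers were Xkr6, an XK-related membrane protein, at 19.3 to 22.01 CPM at 3 months and 23.5 to 28.5 CPM at 6 months without overlap (log2 fold change 0.31 ± 0.05, adjusted p = 0.0113), and Fbxo11, a subunit of a ubiquitin ligase, the smallest change of the 48 (0.16 ± 0.03, adjusted p = 0.0278). The ages did not overlap for Fbxo11, at 102.8 to 111.9 CPM against 113.9 to 126.9 CPM. Ttc36, a tetratricopeptide protein, was at 0.41 ± 0.08 (adjusted p = 0.0376), and Lncppara, a noncoding RNA gene, at 0.34 ± 0.07 (adjusted p = 0.0278).

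**Figure D4:**
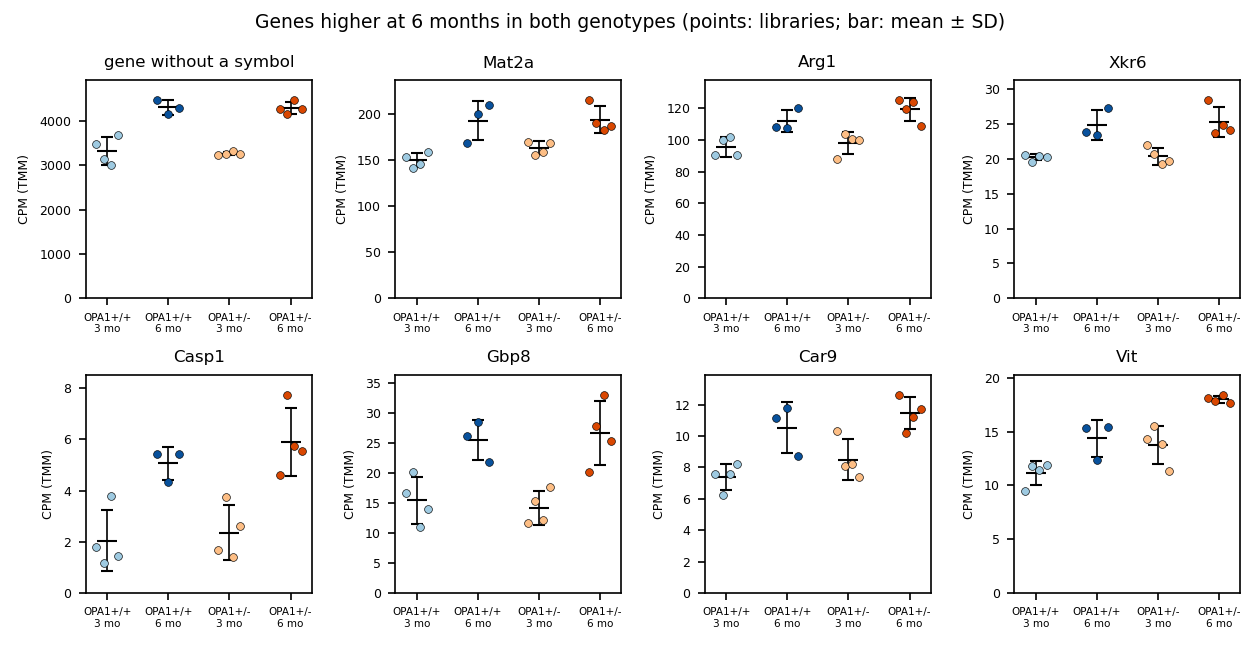
CPM of 8 of the 15 higher genes in each library (points), with the mean and SD of each of the 4 groups. Casp1 sits at 1.16 to 3.79 CPM in the 3 month libraries and at 4.33 to 7.75 CPM in the 6 month libraries, and the panel titled gene without a symbol shows ENSMUSG00002076161.1.

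Keratocyte proteoglycans and markers had no gene called by edgeR among 16 tested, with 5 at an unadjusted p under 0.05 and 5 called lower by DESeq2. Of the 16 values 12 were negative (median -0.11). Without OPA1+/+ 3 months replicate 3 or OPA1+/+ 6 months replicate 1, edgeR called 2 of them lower. Keratocan (Kera) was at -0.18 ± 0.09 (adjusted p = 0.479), lumican (Lum) at -0.27 ± 0.08 (adjusted p = 0.208) and decorin (Dcn) at -0.24 ± 0.06 (adjusted p = 0.117). The whole list summed to 20250 to 23300 CPM at 3 months and 20590 to 22340 CPM at 6 months, and no member was at 0 in all libraries. The list shares Aldh3a1 and Tkt with the corneal epithelium list, so its sum is not a measure of keratocyte RNA alone. The mean log2 CPM of Kera, Lum and Dcn was 7.71 to 8.12 at 3 months and 7.53 to 7.91 at 6 months in OPA1+/+, which overlap, and 7.96 to 8.03 and 7.54 to 7.94 in OPA1+/-, which do not. With that mean as a covariate, an alternative chosen after the data were seen, 2 genes passed and none of the 33 lower genes did, while each of the 48 kept its direction. The median absolute log2 fold change of the 33 was then 0.28, beside 0.39 without it, and the Col11a1 log2 fold change was -0.77 (adjusted p = 0.104). Kera, Lum and Dcn had negative age differences themselves, so this covariate also takes up part of the age difference. The part of stromal RNA content in these differences was not tested.

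**Figure D5:**
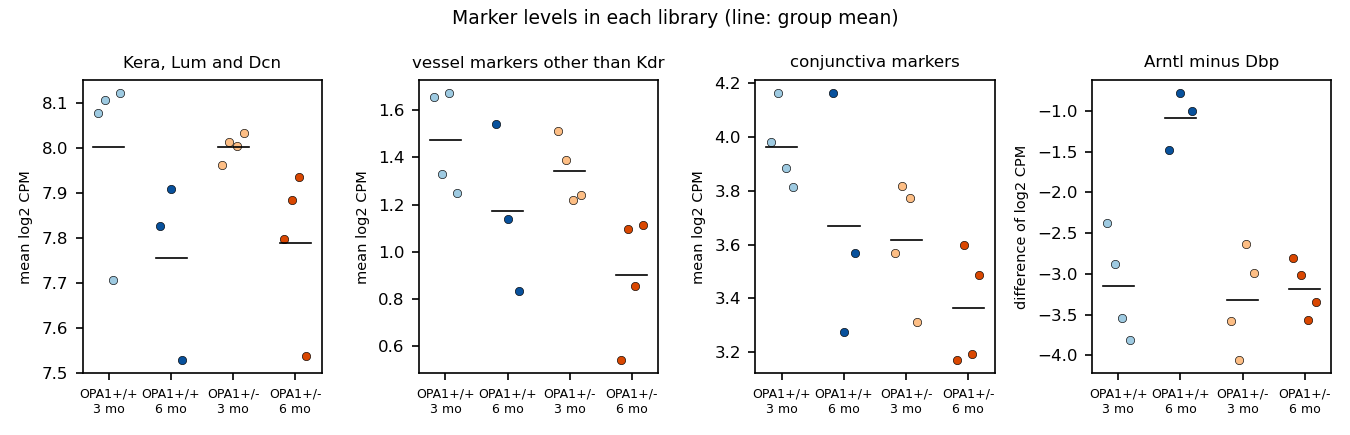
Level of 4 marker measures in each library (points) with the group mean (line): mean log2 CPM of Kera, Lum and Dcn, of 12 vessel markers without Kdr, and of 9 conjunctiva markers, and the difference of log2 CPM between the clock genes Arntl and Dbp. The first lies at 7.71 to 8.12 at 3 months and 7.53 to 7.94 at 6 months, and the OPA1+/+ libraries at 6 months stand apart in the clock measure at -1.48 to -0.78.

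The clock measure separated 1 group. Arntl and Dbp encode clock transcription factors whose levels run in opposite phase over the day, and their log2 difference was -1.48 to -0.78 in OPA1+/+ at 6 months and -4.06 to -2.37 in the other 12 libraries. With this difference as a covariate 12 genes passed, 9 of them among the 48: Col11a1, Col16a1, Olfml3, Chsy3, Mmp2, Ltbp1, Fstl1, Vit and ENSMUSG00002076161.1. With the conjunctiva covariate 17 passed, 13 of them among the 48, and with the vessel covariate 4, all among the 48. The clock measure was apart by age in OPA1+/+ and the vessel measure in OPA1+/-, so these covariates can also take up part of the age difference. The conjunctiva measure overlapped between ages in both genotypes, with medians of 3.82 at 3 months and 3.49 at 6 months. What the lost calls reflect was not tested. The median absolute log2 fold change of the 15 higher and 33 lower genes, 0.34 and 0.39 without a covariate, was 0.31 and 0.42 with the clock covariate, 0.32 and 0.36 with the conjunctiva covariate and 0.31 and 0.40 with the vessel covariate. The ENSMUSG00002076161.1 log2 fold change passed with each of the 4 covariates (adjusted p = 0.000338 to 0.00415).

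Single libraries moved the number of calls. The count of 48 became 116 without OPA1+/+ 6 months replicate 1, which held retina transcripts. It was 45 without OPA1+/- 3 months replicate 4, which held them too, and 79 without OPA1+/+ 3 months replicate 3. It became 22 without OPA1+/+ 6 months replicate 3 or OPA1+/- 3 months replicate 3, 23 without OPA1+/+ 6 months replicate 2, and 30 without OPA1+/- 3 months replicate 2. Without OPA1+/- 6 months replicate 1, 2 or 4 it was 27, 31 and 26. No gene of the 48 changed direction in any of these 15 fits, and 18 passed in all of them: Col11a1, Col16a1, Col5a2, Sparc, Serpinh1, Mmp2, Ltbp1, Olfml3, Chsy3, Snx29, Adh6b, Tgm2, Phldb1, Dkk1, Mat2a, Arg1, Xkr6 and ENSMUSG00002076161.1. Casp1 lost its call in 1 fit, Clca3b in 2, Prss32 in 4, Vit in 5 and the other 26 in 6 to 14. Without both libraries with retina transcripts 155 genes passed, 44 of them among the 48. Just inside the threshold lay Stard13 and Smarca2 (adjusted p = 0.0488), and just outside it Lrrc7 (0.0507), Col24a1 (0.0510), Rab27b and Abhd4 (0.0518).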

How the data were processed

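Total RNA of cornea was depleted of ribosomal RNA and sequenced as strand-specific single reads of 75 bases, per the labels' protocols. The deposited values are whole-number counts per gene, which the authors made with featureCounts 2.0.1 on exons with strand setting 2 and GENCODE release 28, per the file headers. The submitters' processing notes name mm10 and DESeq2, whereas release 28 is on GRCm39, as which coordinates were read here. The aligner used by the authors was not given in the sources used here. Symbols were matched for 52081 of 55357 identifiers (94.1%).

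Groups came from the sample titles. Genes with at least 10 counts in at least 3 libraries were fitted with edgeR 4.0.16 in R 4.3.3 (TMM, robust quasi-likelihood, genotype plus age, 12 residual degrees of freedom, biological coefficient of variation 0.0904). Age within each genotype and the interaction came from a fit with 1 mean per group (11 residual degrees of freedom). A standard error is the size of the log2 fold change over the root of F. CPM values use TMM-scaled totals, marker sums raw totals, and mean log2 CPM a prior count of 2. Totals of 11673240 to 18194946 counts put 3 counts, taken as the limit for a gene without reads, at 0.165 to 0.257 CPM, for counting error only. Replicates of a group differed by 3.15 to 9.54 in chi-square per degree of freedom, so none was a duplicate.

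Named genes are Opa1, the 12 risers and 12 fallers with the smallest p and the 12 with the largest fold change each way, among called genes with the same sign in both genotypes, a mean level of 1 CPM or more and no placeholder symbol, and up to 4 called members per list. The rule names 36 of the 48. The other 12 (2010300C02Rik, A2m, Angptl1, Apaf1, Arhgef2, Fstl1, Mylk, Npdc1, Prss32, Smarca2, Stard13 and ENSMUSG00002076161.1), the genes called in 1 genotype and the uncalled list members were named after their values were seen. The genes and lists were chosen with earlier results of these data known. The fit was tested on counts simulated without an effect of genotype, which is no support for the calls made here. Alternatives were DESeq2 1.42.0 and its size factors, other filters, a replicate block, left-out libraries, fits of 1 genotype, a fold minimum and covariates, of which the keratocyte and vessel covariates were chosen after the data were seen.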

Additional observations from a re-analysis of the deposited data

Results flagged for a closer look

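In groups of 4 libraries, 1 value stood far from the other 3 for 7 of 147 gene and group combinations, where chance gives about 1 in 20. OPA1+/+ 3 months replicate 4 was high for Sparc (255.1 CPM against 237.5 to 239.8), Mgp (20.9 CPM against 15.3 to 16.2) and Angptl1 (10.5 CPM against 9.15 to 9.23). OPA1+/+ 3 months replicate 3 was low for Serpinh1 (40.6 CPM against 45.2 to 45.9) and high for Clca3b (39.2 CPM against 15.6 to 18.7). OPA1+/- 3 months replicate 2 was low for Ttc36 (8.46 CPM against 10.7 to 10.9), and OPA1+/- 6 months replicate 2 was high for Npdc1 (11.3 CPM against 10.8 to 10.9).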

How the results depend on the processing

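The 48 calls of the combined comparison became 229 with DESeq2, 129 with no filter, 155 without the libraries with retina transcripts, 12 with the clock covariate, 17 with the conjunctiva covariate, 2 with the keratocyte covariate, 4 with the vessel covariate and 2 with an absolute log2 fold change of at least 1, and were 22 to 116 with 1 library left out. All 48 genes were called by DESeq2 and kept their direction in each of these fits. For age in OPA1+/+ the 7 calls became 117 with DESeq2, 105 with no filter, 144 without the libraries with retina transcripts, 0 with the clock and 0 with the conjunctiva covariate, 1 with the keratocyte and 1 with the vessel covariate, 2 with only the 7 OPA1+/+ libraries, and 0 to 156 with 1 library left out. For age in OPA1+/- the 14 calls became 70 with DESeq2, 83 with no filter, 5 without the libraries with retina transcripts, 1 with the clock, 3 with the conjunctiva and 2 with the keratocyte covariate, 33 with only the 8 OPA1+/- libraries, and 1 to 23 with 1 library left out. The interaction's 0 calls became 20 with DESeq2, 19 with no filter, 9 without the libraries with retina transcripts, 5 with the vessel covariate, and 0 to 12 with 1 library left out. The cause was not tested.

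With the replicate number as a block, 46 genes passed in the combined comparison (35 of the 48), 0 in OPA1+/+, 3 in OPA1+/- and 0 in the interaction. Same-numbered libraries correlated at -0.03 to 0.22 in their deviations. At 6 months, 1 of 3 OPA1+/+ and 1 of 4 OPA1+/- libraries correlated best with their own number. These values show no clear pairing by number, and so few libraries cannot exclude it. The Opa1 log2 fold change, not called, was -0.0576 to 0.0041 with 1 library left out, changing sign without OPA1+/- 3 months replicate 1 (0.0041), and was 0.011 with the vessel covariate. No library passed the rule for lens transcripts, so that alternative gave no value. The median of fibrillar collagens ran from -0.43 to -0.19 over the alternatives.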

Other observations

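Some gene lists outside the stromal matrix, none with a gene called by edgeR in the combined comparison, had values mostly of 1 sign. Over all genes tested, 49.6% of values were negative and 54.7% of genes shared their sign between genotypes. Positive values were held by 36 of 38 interferon-stimulated and 30 of 34 mitotic genes, and negative values by 34 of 36 DNA replication genes. Members of these lists shared their sign between genotypes in 21.05%, 52.94% and 50%, in that order. Of 10 tested Schwann cell markers, whose cells ensheath the nerves of the stroma, 8 had negative values (median -0.11 on the log2 scale, 2 at an unadjusted p under 0.05, and 0 called by DESeq2). Of 22 tested immediate early genes, 20 had positive values (median 0.16, 6 at an unadjusted p under 0.05, and 2 called higher by DESeq2), with 0.30 in OPA1+/+ and 0.07 in OPA1+/-. Of 16 tested replication-dependent histone genes, 15 had negative values (median -0.16, 2 at an unadjusted p under 0.05, and 1 called lower by DESeq2), with -0.01 in OPA1+/+ and -0.33 in OPA1+/-. The 9 tested genes encoded in mitochondrial DNA had a median of 0.10 (1 at an unadjusted p under 0.05, and 0 called by DESeq2).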
